A study of Mus musculus with 3 samples.

Results

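Glycolysis turns glucose into pyruvate in a chain of cytosolic enzymes, and 3 genes of that chain or its end carried a named probe on these arrays. Gapdh encodes glyceraldehyde-3-phosphate dehydrogenase, which oxidises and phosphorylates a triose phosphate. Pgk1 encodes phosphoglycerate kinase 1, the next enzyme, which makes the first ATP of the pathway. Ldhal6b encodes a lactate dehydrogenase A-like protein and is known mainly from testis. Lactate dehydrogenases reduce pyruvate to lactate and so regenerate the NAD+ that the Gapdh step uses. Neutrophils are known for relying on glycolysis for much of their energy, and Gapdh and Pgk1 are often used as reference genes in expression work.

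The genes were selected by probe name, as 3 of the 16 genes that the files name. They are read by 6 probes. Gapdh (NM_008084.2) and Ldhal6b (NM_175349.2) each have a reference probe repeated in 20 spots. Gapdh and Pgk1 also have control probes for the 5′ and the 3′ end of the transcript, each in 10 spots. The files give these end probes no accession, so their gene is known from the probe name alone, and every Pgk1 value rests on such probes. Of 31 other genes of glycolysis, lactate export and pyruvate handling that were listed, among them Hk2, Pkm and Ldha, 0 had a named probe, so the pathway as a whole was not analysed here.

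RNA was taken from PMN-MDSCs, the polymorphonuclear class of myeloid-derived suppressor cells and part of the neutrophil lineage, of male C57BL/6 mice aged 6 to 8 weeks. Tumor-bearing mice gave the first 2 groups, cells of the tumor itself and cells of the spleen, and wild-type mice, for which the labels name no treatment, gave spleen cells as the third. Cells were enriched with an MDSC isolation kit and then sorted on CD11b and Ly6G, with a Ly6G clone that is usually sold as an antibody to Gr-1 and also binds Ly6C. The isolation text names wild-type spleen and tumor, not the spleen of tumor-bearing mice, and gives neither the tumor type nor whether animals were pooled. Each group is 1 array (Cy3, 1 colour), so no difference below could be tested or checked in a replicate, and the number of arrays limits the precision. None of the 33 cell type markers that were listed had a named probe, so the identity of the sorted cells was not checked. In these bulk samples a lower signal from fewer cells of a type and from less RNA per cell cannot be told apart.

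Short stretches before a transcription start of each gene are shown. The reason is that Gapdh and Pgk1 are textbook targets of hypoxia-inducible factor, whose core sites read ACGTG or GCGTG. Ldhal6b is the dim gene of the set. The stretches are from RefSeq, build GRCm38.p6. Capitals mark ACGTG or GCGTG on either strand for Gapdh and Pgk1. For Ldhal6b they mark TATAAA on either strand, with overlapping matches merged.
Gapdh, chr6:125165805-125165834, minus strand: gagcccaCACGCttggtGCGTGcacatttc
Pgk1, chrX:106186947-106186976, plus strand: aggACGTGacaaatggaagtagCACGTctc
Ldhal6b, chr17:5418838-5418867, minus strand: aatggaagcgcTTTATAAAgccatggtgca

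The Gapdh stretch lies inside the span of its gene, chr6:125161852-125166467 on the minus strand, and so precedes an internal start. The Pgk1 and Ldhal6b stretches lie outside their genes. The 250 bases before these starts held GCGTG 2 times for Gapdh, 1 time on each strand. Those of Pgk1 held ACGTG 2 times, again 1 time on each strand. Ldhal6b had 0 matches to either, but 3 to TATAAA, of which 2 overlap in the stretch shown. Over all 32851 windows of this length in the RefSeq promoter table, 38.6% held ACGTG or GCGTG and 12.4% held TATAAA. These matches are descriptions of letters and not of binding.

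Gapdh was among the brightest signals of all 3 arrays, and lowest in tumor PMN-MDSCs. Its reference probe read 296917 to 344214 signal units over 19 spots on the tumor array, with a median of 307410. On the tumor-bearing spleen array it read 452192 to 495350 over 20 spots, with a median of 471446, and on the wild-type spleen array 470426 to 544406 over 19 spots, with a median of 495829. The tumor spots lay apart from those of both spleens before scaling, while the spots of the 2 spleens overlapped. By rank the probe stood 27th from the top among 60890 probes in tumor, 3rd in tumor-bearing spleen and 11th in wild-type spleen.

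**Figure D1:**
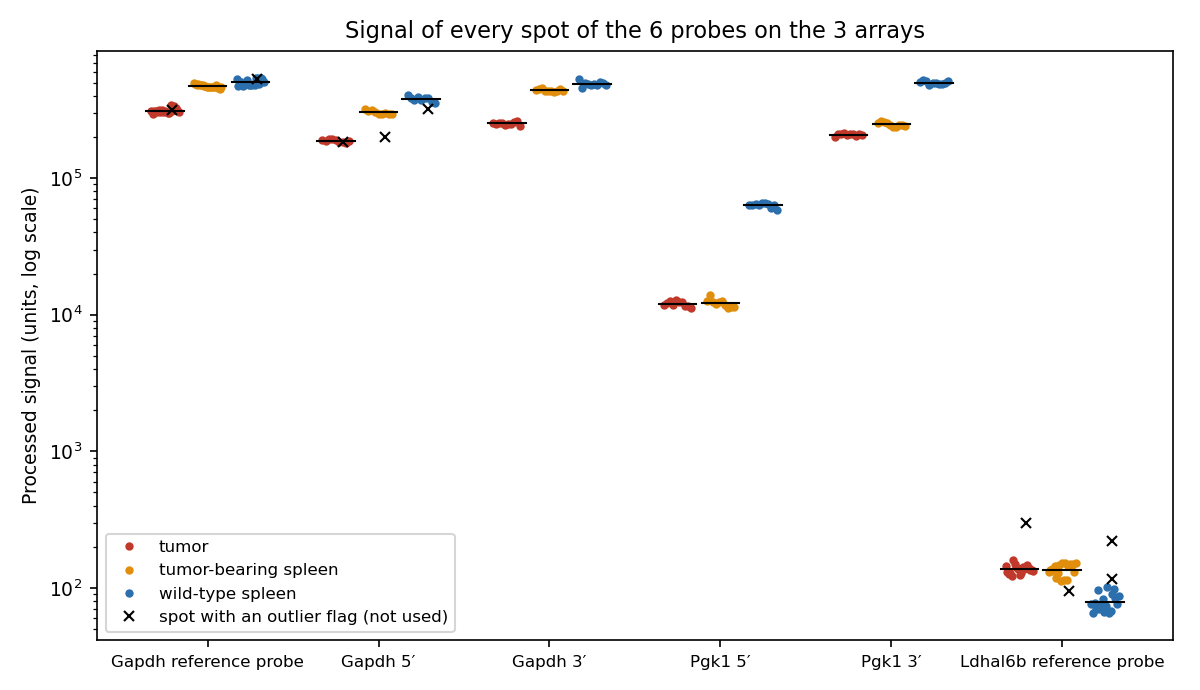
Processed signal (log axis) of every spot of the 6 probes of Gapdh, Pgk1 and Ldhal6b, with tumor in red, tumor-bearing spleen in orange and wild-type spleen in blue. Each point is a spot, each black line the geometric mean of the spots used and each cross a spot with an outlier flag. The Pgk1 5′ probe has geometric means of 12020 units in tumor, 12132 in tumor-bearing spleen and 63335 in wild-type spleen, and Ldhal6b 136.7, 135.8 and 78.3 units in the same order.

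To compare arrays, each log2 signal was set against the 75th percentile of its array, which was 524 units in tumor, 509 in tumor-bearing spleen and 698 in wild-type spleen. Errors below are the SD between repeated spots, combined over both arrays, and hold no variation between mice. On this scale the level of the Gapdh reference probe was 9.21 in tumor, 9.86 in tumor-bearing spleen and 9.49 in wild-type spleen. The level in tumor PMN-MDSCs was thus below that in tumor-bearing spleen by a log2 difference of -0.64 ± 0.06, or 1.56-fold, at 19 of 19 array positions. Tumor-bearing spleen was above wild-type spleen by 0.36 ± 0.08, or 1.29-fold, at 19 of 19 positions. Between tumor and wild-type spleen the difference was -0.28 ± 0.09, at 18 of 18 positions, and it depended on the scale: without scaling it was -0.69, and relative to the mean of the other 13 reference genes it was 0.17.

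The end probes of Gapdh placed the arrays in the same order. The 5′ probe had a geometric mean of 187442 units in tumor, 303431 in tumor-bearing spleen and 379450 in wild-type spleen, and the 3′ probe 251224, 438213 and 489581 units. After scaling, both were highest in tumor-bearing spleen and lowest in tumor. Tumor lay below tumor-bearing spleen by -0.74 ± 0.06 at the 5′ end and by -0.84 ± 0.04 at the 3′ end. The direction tumor below tumor-bearing spleen held for all 3 Gapdh probes under the 10 other settings tried, with values from -0.90 to -0.34. Tumor-bearing spleen against wild-type spleen did not keep its sign: the 5′ probe, at 0.13 ± 0.08, had overlapping spot ranges and turned to -0.32 without scaling, where the reference and 3′ probes came to -0.09 and -0.16.

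The arrays also carry end probes named for human and rat GAPDH, so 7 probes bear the gene's name. How well the human and rat probes match the mouse transcript was not analysed here. All 7 were lower in tumor than in wild-type spleen, but by different amounts. In order of their wild-type signal, from 502010 down to 4467 units, the differences were -0.28, -0.55, -0.60, -0.72, -1.20, -1.04 and -0.98. Against tumor-bearing spleen all 7 were lower in tumor too, from -0.64 ± 0.06 for the mouse reference probe, the brightest, to -1.35 ± 0.11 for the rat 3′ probe, the dimmest. The brightest spot of the reference probe reached 44.2%, 63.6% and 70.0% of the scanner's saturation value on the tumor, tumor-bearing spleen and wild-type arrays, and 0 spots were marked as saturated. The part of signal height in these unequal differences was not tested. Between tumor-bearing and wild-type spleen the 7 probes ran from -0.11 ± 0.09 to 0.37 ± 0.11, with 5 above 0 and 2 below, which does not place Gapdh higher or lower there.

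**Figure D2:**
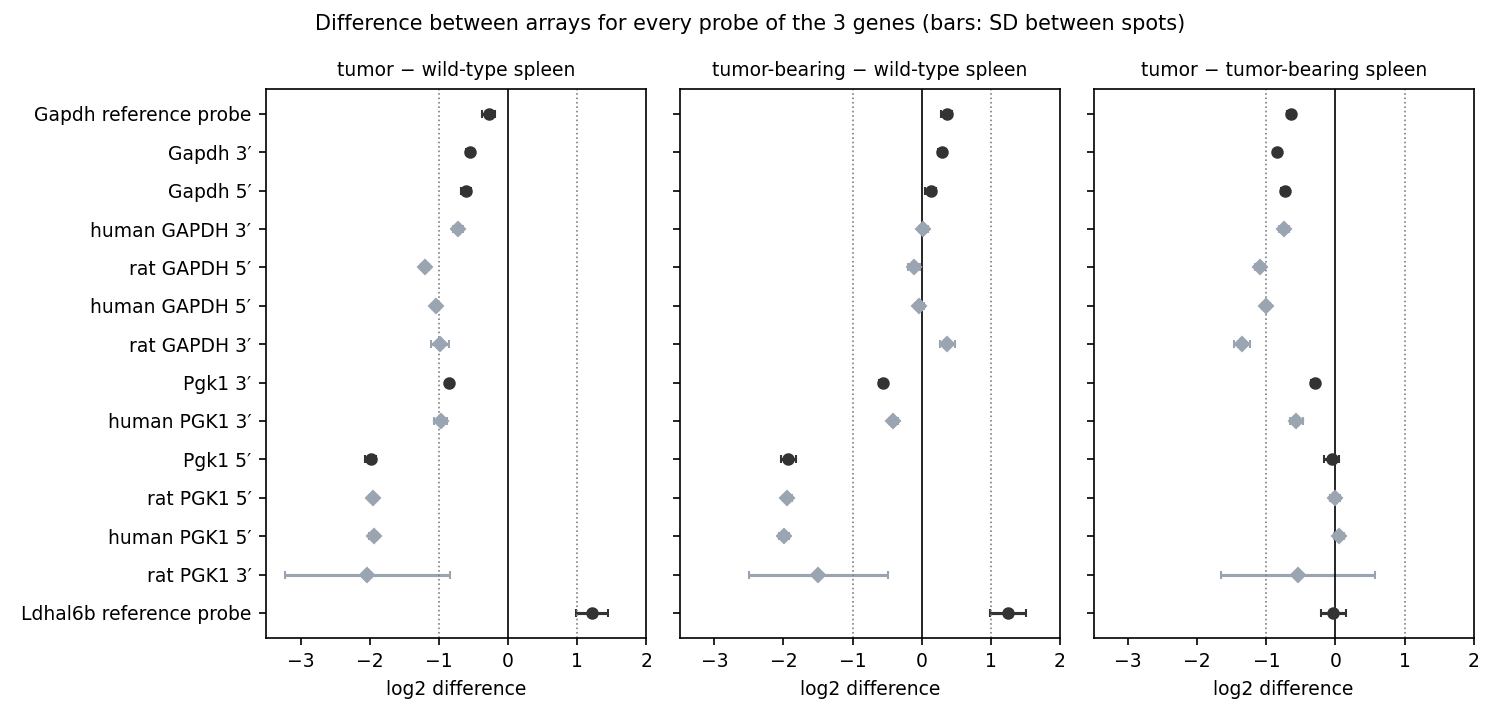
Log2 difference between arrays for every probe named for Gapdh, Pgk1 or Ldhal6b, with mouse probes as dark circles and human and rat probes as grey diamonds, ordered within a gene by wild-type signal. Bars are the SD between spots combined over both arrays and dotted lines mark 2-fold. The 5′ probes of Pgk1 lie near -1.9 to -2.0 in both comparisons with wild-type spleen, apart from the brighter 3′ probes.

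Pgk1 was lower in both groups of tumor-bearing mice than in wild-type spleen, and far more so at its 5′ end. The 5′ probe read 11242 to 12714 units in tumor, median 12029, and 11273 to 13862 in tumor-bearing spleen, median 12178. In wild-type spleen it read 58599 to 65766 units, median 63496. The wild-type spots lay well above the others, whose ranges overlapped. Scaled, the 5′ probe differed from wild-type spleen by -1.98 ± 0.08 in tumor (3.96-fold lower) and by -1.93 ± 0.10 in tumor-bearing spleen (3.81-fold lower), at 10 of 10 positions in each. The values ranged over the other settings from -2.40 to -1.53 and from -2.38 to -1.42, so both stayed past 2-fold under all 10.

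The 3′ probe of Pgk1 moved the same way by less. It read 200969 to 212769 units in tumor, 236359 to 261051 in tumor-bearing spleen and 482929 to 521028 in wild-type spleen, so that all 3 ranges lay apart. After scaling, tumor differed from wild-type spleen by -0.85 ± 0.04 (1.81-fold lower) and tumor-bearing spleen by -0.56 ± 0.06 (1.47-fold lower). The latter came to only -0.05 relative to the mean of the other reference genes. Within tumor-bearing mice, tumor lay below spleen by -0.29 ± 0.06 at the 3′ end, and by -0.06 ± 0.11 at the 5′ end, where the spots overlapped. The authors' deposited table reduces the former to -0.04.

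The change of the 5′ probe minus that of the 3′ probe, which no constant scaling factor can alter, was -1.13 ± 0.09 for Pgk1 between tumor and wild-type spleen and -1.37 ± 0.12 between tumor-bearing and wild-type spleen. After quantile normalization these were -0.90 and -0.92. For Gapdh the same quantity was -0.05 ± 0.10 and -0.16 ± 0.10, and it turned to 0.10 and 0.01 after quantile normalization. With the human end probes it was -0.97 ± 0.12 and -1.58 ± 0.10 for Pgk1, and -0.32 ± 0.09 and -0.06 ± 0.10 for Gapdh. With the rat end probes it was 0.09 ± 1.20 and -0.45 ± 1.01 for Pgk1, whose 3′ probe was dim, and -0.22 ± 0.14 and -0.48 ± 0.14 for Gapdh. The larger end difference of Pgk1 was thus seen with the mouse and human probes. The rat probes gave no larger difference for Pgk1 than for Gapdh. The large ± of these rat Pgk1 values reflects the wide scatter between single spots of the dim 3′ probe. It is not an error of the mean. Whether the rat Pgk1 probes depart from the mouse and human ones was not tested. Between tumor and tumor-bearing spleen, the end difference of Pgk1 was 0.24 ± 0.12 with the mouse probes and 0.61 ± 0.12 with the human probes. For Gapdh it was 0.11 ± 0.07 and -0.26 ± 0.09. The rat probes gave 0.53 ± 1.11 for Pgk1 and 0.26 ± 0.14 for Gapdh. Such end probes are meant to report on RNA length. The Pgk1 ends also differed in signal height. In wild-type spleen the geometric means of the 5′ and 3′ probes were 63335 and 499881 units for mouse Pgk1. They were 22809 and 179086 units for human PGK1, and 379450 and 489581 units for mouse Gapdh. The parts of RNA length and of signal height in the Pgk1 result were not tested.

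The 5′ probes named for Pgk1 in the 3 species gave near values. The mouse, rat and human 5′ probes, at 63335, 58205 and 22809 units in wild-type spleen, differed from it by -1.98, -1.95 and -1.94 in tumor, a spread of 0.04, and by -1.93, -1.94 and -1.99 in tumor-bearing spleen, a spread of 0.06. The human 3′ probe differed by -0.97 ± 0.10 and -0.41 ± 0.06, near the mouse 3′ probe. The rat 3′ probe was dim, at 229.5 units in wild-type spleen, and its spots scattered widely. Its differences were -2.03 ± 1.19 and -1.49 ± 1.00, with overlapping spot ranges. It was lower than in wild-type spleen at 10 of 10 positions in tumor and at 8 of 10 in tumor-bearing spleen. These differences were not ranked against those of the other probes. How far the probes of the 3 species share sequence was not analysed here, so they are not independent readings.

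Ldhal6b was the dimmest of the 3 genes and the one that was higher in tumor-bearing mice. The Ldhal6b probe read 122.2 to 160.3 units in tumor, median 136.5, and 112.6 to 153.5 in tumor-bearing spleen, median 138.1. In wild-type spleen it read 65.1 to 101.3 units, median 76.3. Among the spots used, the ranges of the first 2 arrays overlapped each other, and neither overlapped that of wild-type spleen. All 19, 19 and 18 spots used were well above background, and the median of 300 negative spots was 3.05, 3.21 and 3.70 units on the same arrays. The spots left out by outlier flags reached 298.6 units in tumor and 219.8 in wild-type spleen, and in tumor-bearing spleen the spot left out read 95.4. With these spots included, the range of wild-type spleen overlapped those of both other arrays.

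Scaled, Ldhal6b differed from wild-type spleen by 1.22 ± 0.23 in tumor (2.32-fold higher) and by 1.25 ± 0.26 in tumor-bearing spleen (2.38-fold higher), at 17 of 17 positions in each. Its direction held in all 10 other settings in both comparisons, but 2 of them put it under 2-fold: no scaling gave 0.80 and 0.79, and normexp background correction 0.86 and 0.87. Tumor and tumor-bearing spleen differed by -0.03 ± 0.18, with 7 positions higher and 11 lower, and the sign turned in 3 settings. The probe stood above 58.3%, 58.7% and 46.1% of all probes on the tumor, tumor-bearing spleen and wild-type arrays. Whether its signal comes from Ldhal6b alone or also from related lactate dehydrogenase transcripts was not tested.

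Across the 6 probes, 2 were at least 2-fold apart between tumor and wild-type spleen, the Pgk1 5′ probe and Ldhal6b, beside 37.8% of the 43417 probes well above background on both arrays. The same 2 probes were past this limit between tumor-bearing and wild-type spleen, beside 49.3% of 42317 probes. Between tumor and tumor-bearing spleen 0 of 6 were, beside 28.9% of 42838. These shares of the members were not above the background, so the counts say nothing particular about glycolytic genes. The median difference over the 6 probes was -0.58, 0.21 and -0.47 in the 3 comparisons, and over all probes 0.02, 0.29 and -0.04. Of the 6 probes, 3 read Gapdh and 2 read Pgk1, so their median does not describe the 3 genes as a group. Both comparisons with wild-type spleen use the same wild-type array, and their values are therefore not independent of each other.

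**Figure D3:**
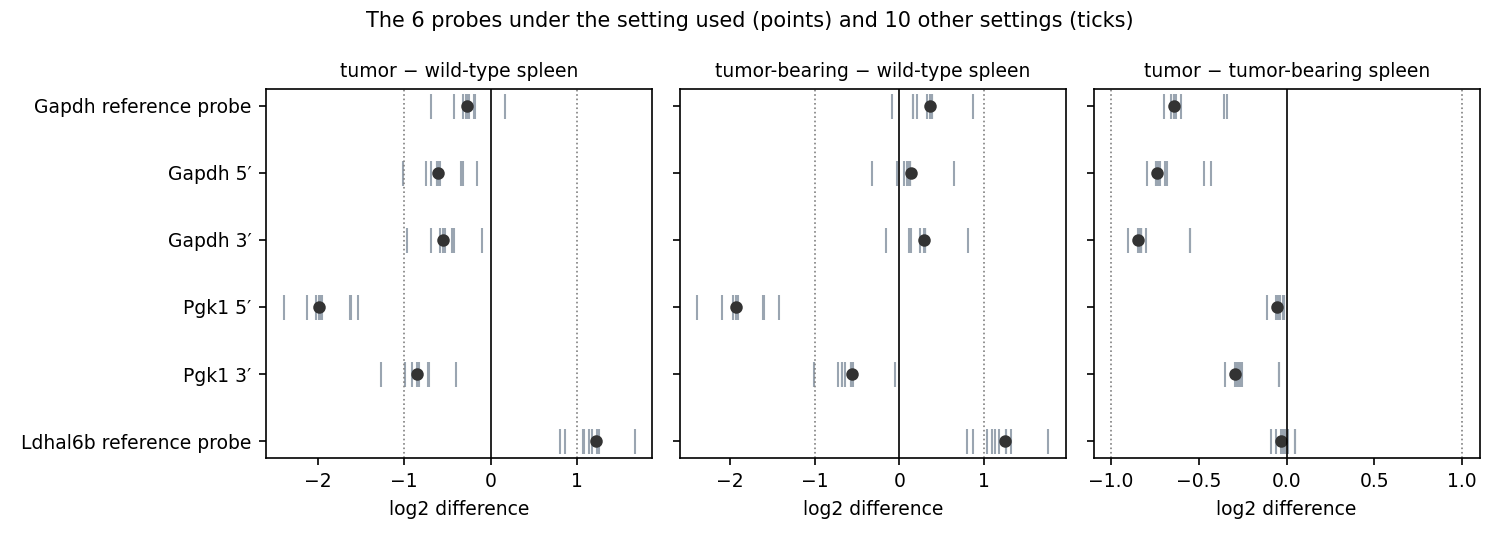
Log2 differences of the 6 probes in the 3 comparisons, with the value reported as a point and the values under 10 other settings as ticks. Dotted lines mark 2-fold. The Pgk1 5′ probe stays below -1 in both comparisons with wild-type spleen, and the Gapdh probes change sides of 0 between tumor-bearing and wild-type spleen.

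The place of Gapdh among the reference genes depended on the probe. Over the 3 arrays the level of the Gapdh reference probe spanned 0.64 log2 units (1.56-fold), the 4th smallest range of the 15 reference genes, after B2m at 0.38, Tbp at 0.41 and Tfrc at 0.51. Its 5′ and 3′ probes spanned 0.74 and 0.84, more than Actb at 0.67 and Ppia at 0.73, and the probes named for human and rat GAPDH spanned 0.75 to 1.35. Ldhal6b spanned 1.25 and ranked 7th. Gapdh ranked 2nd after quantile normalization, with a range of 0.35, and 4th in the 2 other scalings tried for this rank. Ldhal6b ranked 9th after quantile normalization, 7th with the median of detected probes and 10th with the other reference genes as the scale. The largest range was that of Gk, glycerol kinase, at 3.29. By the root mean square difference of centred levels over 3 arrays, the genes nearest to Gapdh were B2m (0.16), Tfrc (0.21) and Actb (0.23). Nearest to the Pgk1 3′ probe were Tfrc (0.18), Tbp (0.19) and Ppia (0.38), and nearest to Ldhal6b were Actb (0.39), B2m (0.49) and Gapdh (0.61). With 3 arrays such likeness is a description only.

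**Figure D4:**
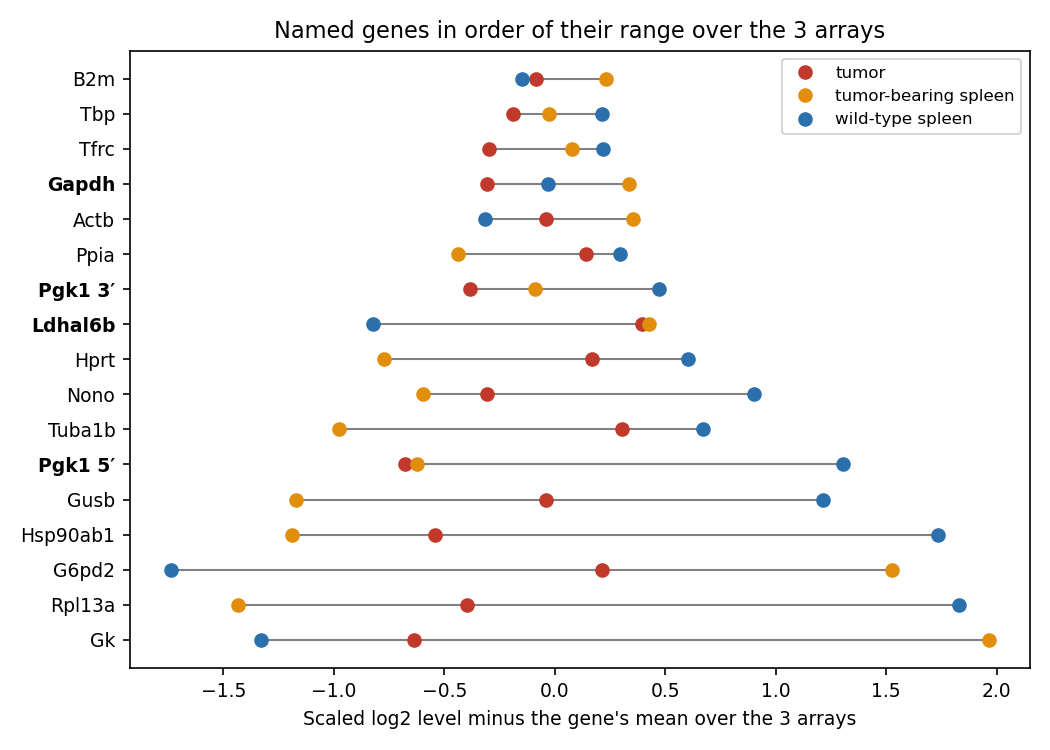
Scaled log2 level of each named gene minus its own mean over the 3 arrays, with tumor in red, tumor-bearing spleen in orange and wild-type spleen in blue, in order of range. Gapdh spans 0.64 and Ldhal6b 1.25 log2 units, while the 2 end probes of Pgk1 stand at different places in the order.

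Gapdh is often used as the scale in PCR. On these arrays that choice adds 1 constant to every log2 difference, taken from the Gapdh reference probe: 0.28 between tumor and wild-type spleen, -0.36 between tumor-bearing and wild-type spleen and 0.64 between tumor and tumor-bearing spleen. Which genes then change sides of a limit follows from how near to it they lay. Ldhal6b against wild-type spleen came to 1.50 in tumor and 0.88 in tumor-bearing spleen on this scale. The Pgk1 5′ probe came to -1.71 and -2.29, and the 3′ probe to -0.57 and -0.92. Between tumor and tumor-bearing spleen the Pgk1 3′ probe came to 0.35 in place of -0.29.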

How the data were processed

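The files are scanner outputs of 3 arrays, and per the file headers the authors extracted intensity values in 1 colour with Agilent Feature Extraction 11.0.1.1, background-subtracted and detrended within each array and not scaled between arrays. A multiplicative detrending is visible in the tumor and wild-type files and not in the tumor-bearing spleen file. The deposited value table holds log2 values with equal maxima of 18.9 on the 3 arrays; its scaling method is not stated in the labels or headers.

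Processed signals were put on the log2 scale, spots with an outlier flag left out and repeated spots averaged. The 75th percentile over 60890 probes, without control and negative probes, was subtracted. Probes entered the background shares when over 50% of their spots passed the scanner software's well-above-background mark in each array compared. A 2-fold difference is a descriptive limit, and no p-value was computed. The steps were tested on simulated arrays. Symbols of the 15 reference probes came from RefSeq accessions, versions left off. The genes, lists and tests were chosen with earlier results of these data known; all probes of the 3 genes are named, besides the 3 reference genes nearest to each in pattern. There were 10 alternatives, 1 of them added after the data were seen (spots with outliers in local background left out), and limits of 1.5-fold and 4-fold. Calculations used Python 3.11.15, numpy 2.4.6, pandas 2.3.3, R 4.3.3, limma 3.58.1 (normexp, offset 50) and matplotlib 3.10.9.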

Additional observations from a re-analysis of the deposited data

How the results depend on the processing

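Counts were held to be the same within 1.5 times, and log2 values within 1 SD between spots. By these limits 67 recomputed counts and end differences stayed the same and 17 did not, and of the log2 differences and ranges of single probes 115 did and 71 did not. Between tumor and wild-type spleen the count of 2 probes past 2-fold became 3 with no scaling, where Gapdh 5′ (-1.02) and Pgk1 3′ (-1.27) came in and Ldhal6b (0.80) went out, 1 with normexp, 4 at a 1.5-fold limit and 0 at 4-fold. Between tumor-bearing and wild-type spleen it became 1 with normexp and 0 at 4-fold, and stayed at 2 with no scaling, where Pgk1 3′ (-1.01) came in and Ldhal6b (0.79) went out. The count became 3 at 1.5-fold between tumor and tumor-bearing spleen. The Pgk1 5′ minus 3′ differences were -1.13, -1.37 and 0.24 in the order of comparisons used above. They moved to -0.90, -0.92 and 0.023 with quantile normalization and to -0.91, -0.93 and 0.023 in the authors' deposited table. Those of Gapdh against wild-type spleen moved to 0.10 and 0.012 under the former and to 0.10 and -0.014 under the latter. The cause was not tested. With no filter on dim probes 23672, 29175 and 19084 probes in place of 16430, 20853 and 12384 were past 2-fold in the 3 comparisons. Scaling moves the median of all probes: against wild-type spleen by -0.41 and -0.45 for tumor and tumor-bearing spleen with no scaling, by 0.45 and 0.51 with the other reference genes as the scale, by -0.15 and -0.16 with the median of detected probes, and by 0.11 for tumor with normexp. No paired analysis was possible because each group is 1 array. Ldhal6b, the dimmest of the 6 probes, had an SD between spots of 0.10, 0.15 and 0.21 on the tumor, tumor-bearing spleen and wild-type arrays.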
